A study of Mus musculus with 12 samples.

Results

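Mammary tumours of the mouse strains YD and YE were compared with each other. In both strains the MMTV promoter drives an activated neu transgene, which encodes ErbB2, in the altered forms that the labels name MMTV/neundl-YD and MMTV/neundl-YE. The 2 pools titled YD and the 2 pools titled YE are 4 of the 12 pools of the study and 8 of its 24 arrays, and they were set against each other because all 8 arrays share 1 feature extraction day, the day on which the scanned images were read, in the file headers. Each pool held equal amounts of RNA from 5 tumours, so that 10 tumours stood behind each strain. The mice were female and had carried tumours for 6 weeks, and their ages are not given in the labels. The other 8 pools came from the strains NYPD, YB and YC, built in the same way, and from the parental strain NDL2-5, written NDL25 in the sample names. They served to estimate the spread between pools and to place the genes named here. Tumour RNA was hybridised beside Universal Mouse Reference RNA on 2 arrays per pool with the dyes exchanged, and every level below is the log2 ratio of tumour over that reference, averaged over the 2 arrays. Pooling limits the comparison to n = 2 per strain, and its p-values measure only the spread between pools. In bulk tumour RNA, fewer cells of a type and less RNA per cell cannot be told apart.

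As background, ErbB2 is a receptor tyrosine kinase of epithelial cells that phosphorylates tyrosines in its own tail, and adaptor proteins dock on these sites to pass the signal on. The NYPD receptor lacks these tail tyrosines, and each of the strains YB, YC, YD and YE has a single site put back. The YD site is known to bind the adaptor Shc and the YE site the docking protein Dok-R, encoded in the mouse by Dok2. The comparison asks how tumours whose receptor carries the YD site differ in expression from those whose receptor carries the YE site.

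Tumour signals on the 8 YD and YE arrays had medians of 364.8 to 756.6 in units of intensity, with local backgrounds of 43 to 64. The share of spots well above background was 97.28% to 98.85%, and saturation touched 59 to 296 spots on an array. None of the 24 genes described below was saturated on these arrays, and each was well above background on all 4 arrays of both strains. Across genes, the log2 ratios of YD pool 1 and YD pool 2 correlated at r = 0.936 and those of YE pool 1 and YE pool 2 at r = 0.939. YD pool 1 was closer to YE pool 1, at r = 0.961, while YD pool 2 and YE pool 2 stood at r = 0.910. Genes are not independent replicates, and these values are given as a description. The order shows that the pools of 1 strain were not more alike than some pools of different strains.

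Of 28351 genes tested in limma, 5 differed between YD and YE at an adjusted p under 0.05, which is 0.0176% of all genes. Of these, 3 were higher in YD (0.0106%) and 2 were lower (0.00705%). At an unadjusted p under 0.05, 1327 genes were higher in YD (4.68%) and 1146 lower (4.04%), 8.72% in all. Both YD pools lay above both YE pools for 19.7% of all genes and below them for 22.3%, so that the pools did not overlap in 42% of genes. The median difference over all genes was -0.01. The 5 genes were Ptx3, Smoc1 and Lrrc42, higher in YD, and Pycr1 and Slc25a17, lower in YD, each at an adjusted p of 0.0457. None of the 5 calls was kept when any 1 of the 12 pools was left out, or with the 4 YD and YE pools alone, while each of the 5 differences kept its sign in all of these fits.

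Ptx3, a secreted pentraxin of innate immunity and of the extracellular matrix, had log2 ratios of 0.17 and 0.30 in the YD pools, against -2.24 and -2.57 in the YE pools. It was therefore near the reference level in YD and well below it in YE, a difference of 2.64 ± 0.25 (SE, n = 2 pools in each strain) or 6.23-fold. A further probe of Ptx3 gave 2.90. Among the 8 pools of the other strains Ptx3 ran from -2.55 to -0.22, so that both YD pools were above all of them and the YE pools were not below all of them. Smoc1, a secreted calcium-binding matrix protein of the SPARC family, had 2.48 and 2.97 in the YD pools, against 0.42 and 0.56 in the YE pools. The difference was 2.23 ± 0.20 or 4.70-fold. The other strains held 0.68 to 1.74, with both YD pools above this range and both YE pools below it. Lrrc42, a leucine-rich repeat protein, had -1.56 and -1.43 in the YD pools, against -2.10 and -2.16 in the YE pools, a difference of 0.64 ± 0.06. Its second probe gave 0.51. Both YE pools of Lrrc42 were below the range of the other strains, -1.84 to -1.40.

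Pycr1, the mitochondrial enzyme of the last step of proline synthesis, had 0.14 and -0.05 in the YD pools, against 0.86 and 1.02 in the YE pools. It fell by 0.89 ± 0.09 on the log2 scale in YD relative to YE. The other strains held 0.18 to 0.72, with both YD pools below and both YE pools above. Slc25a17, a carrier of cofactors across the peroxisomal membrane, had -2.72 and -2.57 in the YD pools, against -1.80 and -1.76 in the YE pools, a difference of -0.87 ± 0.08. Its probes disagreed, since the other probes gave -0.69 and 0.33. The probe that gave 0.33 had the strongest mean tumour signal, 3764 against 3115 for the probe used. The other strains spanned -2.98 to -1.56, and neither strain lay outside them.

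**Figure D1:**
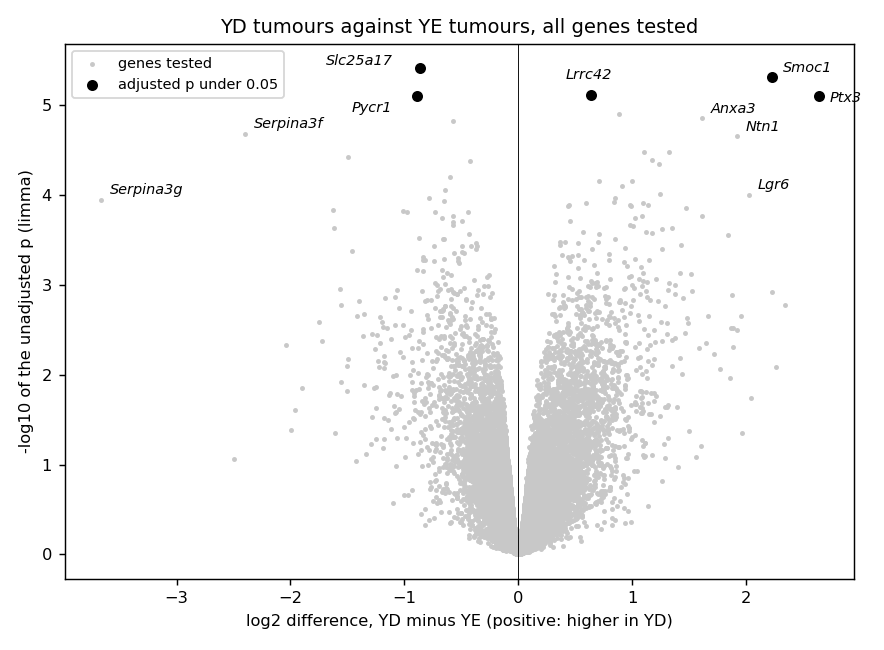
Each point is 1 of the 28351 genes tested, with the log2 difference YD minus YE on the x axis and the -log10 of the unadjusted limma p on the y axis. The 5 genes with an adjusted p under 0.05 are black, and Serpina3g lies farthest to the left at -3.67 without passing the threshold.

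The next genes are given as values, because they had an unadjusted p under 0.01 and a log2 difference of at least 1 but did not pass the adjusted threshold. They bring each direction to 12 genes. Among the 9 with positive differences were signalling molecules and their regulators. Ntn1, the secreted guidance cue netrin, had 1.78 and 2.28 in the YD pools, against 0.33 and -0.11 in the YE pools (difference 1.92 ± 0.21, adjusted p = 0.0634), while a dim second probe gave 0.15. Lgr6, a receptor for R-spondins that marks epithelial stem cells, had 1.09 and 1.77 in YD, against -0.49 and -0.70 in YE (difference 2.03 ± 0.28, adjusted p = 0.107). Pools that do not overlap were a condition for naming each of the 24 genes, and 42% of all genes met it. Trib2, a pseudokinase that controls protein turnover, had 0.66 and 0.96 in YD, against -0.44 and -0.58 in YE, and its second probe differed by 1.01 in the same direction. Ccn1, a matricellular protein, had -2.03 and -1.99 in YD, against -2.97 and -3.40 in YE. Anxa3, a calcium-dependent membrane-binding annexin, had -0.65 and -0.64 in YD, against -2.09 and -2.43 in YE (difference 1.62 ± 0.17, adjusted p = 0.0536), but its dim second probe gave -0.03. The remaining 4 were Triqk at 1.25, Pxdc1 at 1.24, Cyria, a protein that binds Rac, at 1.10, and Specc1 at 1.0, and a second Specc1 probe gave -0.14.

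The widest difference of all genes tested was in a pair of neighbouring protease inhibitor genes. Serpina3g, an inhibitor of cysteine cathepsins and serine proteases, had -0.50 and -0.67 in the YD pools, against 2.67 and 3.49 in the YE pools. The difference was -3.67 ± 0.51 or 12.7-fold with an adjusted p of 0.107. The 8 pools of the other strains held -0.57 to 1.01, so that both YE pools were above all of them. Serpina3f, a second member of the same cluster, had 0.19 and 0.07 in the YD pools, against 2.22 and 2.83 in the YE pools (difference -2.40 ± 0.26, adjusted p = 0.0634), and its other probe gave -2.83. The other strains held 0.16 to 1.20 for Serpina3f, again with both YE pools above. The other members measured, Serpina3a, Serpina3b, Serpina3c, Serpina3k, Serpina3m and Serpina3n, had differences between -0.12 and 0.25. Serpina3n, a further protease inhibitor of the cluster, had 2.08 and 2.39 in YD, against 1.84 and 2.14 in YE, and its groups overlapped. Probe sequences were not used here, so the part of hybridisation between Serpina3f and Serpina3g was not tested.

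The upstream sequences of these genes were searched for 3 motifs, on both strands of the 250 bases before the start site, and those of the Serpina3 pair and of Pycr1 are shown because the pair differed together and Pycr1 is an enzyme gene of amino acid synthesis. They were taken from the RefSeq promoter table of build GRCm38.p6 and are written in the direction of transcription, with the matched motif in capitals. Serpina3f lies at chr12:104214294-104214543 on the plus strand (the first of 2 start sites listed), Serpina3g at chr12:104235897-104236146 on the plus strand and Pycr1 at chr11:120643749-120643998 on the minus strand.
Serpina3f: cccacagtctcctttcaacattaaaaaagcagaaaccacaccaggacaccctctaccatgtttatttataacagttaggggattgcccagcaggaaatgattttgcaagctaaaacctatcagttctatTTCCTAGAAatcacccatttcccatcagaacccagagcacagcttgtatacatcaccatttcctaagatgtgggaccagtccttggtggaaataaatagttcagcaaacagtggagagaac
Serpina3g: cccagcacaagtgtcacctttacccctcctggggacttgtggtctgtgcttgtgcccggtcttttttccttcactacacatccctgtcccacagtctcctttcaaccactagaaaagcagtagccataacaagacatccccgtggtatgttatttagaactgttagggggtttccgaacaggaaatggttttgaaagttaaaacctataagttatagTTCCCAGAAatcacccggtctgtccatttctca
Pycr1: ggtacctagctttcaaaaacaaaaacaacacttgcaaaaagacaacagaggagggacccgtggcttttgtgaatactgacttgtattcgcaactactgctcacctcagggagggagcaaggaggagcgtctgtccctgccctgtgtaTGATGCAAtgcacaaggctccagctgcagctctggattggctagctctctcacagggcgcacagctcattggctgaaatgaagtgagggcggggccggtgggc
Serpina3f and Serpina3g each held 1 match to the STAT motif TTCNNNGAA, beginning 121 and 33 bases before the start. From the second start site listed for Serpina3f, the match began 210 bases before the start. The longest exact run shared by the windows, 19 bases beginning 250 and 163 bases before the start, did not hold the motif. The same bases follow both matches, so the matches are not taken as independent. Pycr1 held 1 match to the ATF4 half-site TGATGNAA, 103 bases before the start. Of 32851 promoters in the table, 7.02% held the STAT motif, 3.45% the ATF4 half-site and 6.75% the AP-1 motif TGANTCA. The windows of Ptx3, Lrrc42 and Slc25a17 held none of the 3, and Smoc1 had no entry. A match describes the letters and is no evidence of binding.

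Several of the remaining genes with negative differences encode metabolic enzymes. Adh1, an alcohol and retinol dehydrogenase, had 1.04 and 0.54 in the YD pools, against 2.20 and 2.63 in the YE pools, a difference of -1.62 ± 0.25 on this probe and -1.72 on the other. Mgst2, a microsomal glutathione transferase, had -1.56 and -2.46 in YD, against -0.50 and -0.39 in YE. Chpt1, which makes phosphatidylcholine, had 1.33 and 1.26 in YD, against 2.11 and 2.60 in YE. The YD pools were below the YE pools without overlap for all of these, as the choice of the genes required. Apof, a lipoprotein-associated apolipoprotein, differed by -1.46 and Cdr2 by -1.50. Traf1, an adaptor of tumour necrosis factor receptors, differed by -1.09. Itprid1 had 1.38 and 1.78 in YD, against 2.92 and 3.49 in YE, and Gjb2, a connexin of gap junctions, had 2.27 and 2.41 in YD, against 3.26 and 3.45 in YE. The second Gjb2 probe gave -0.06. None of these genes passed the adjusted threshold, with adjusted p between 0.0792 for Cdr2 and 0.199 for Traf1.

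**Figure D2:**
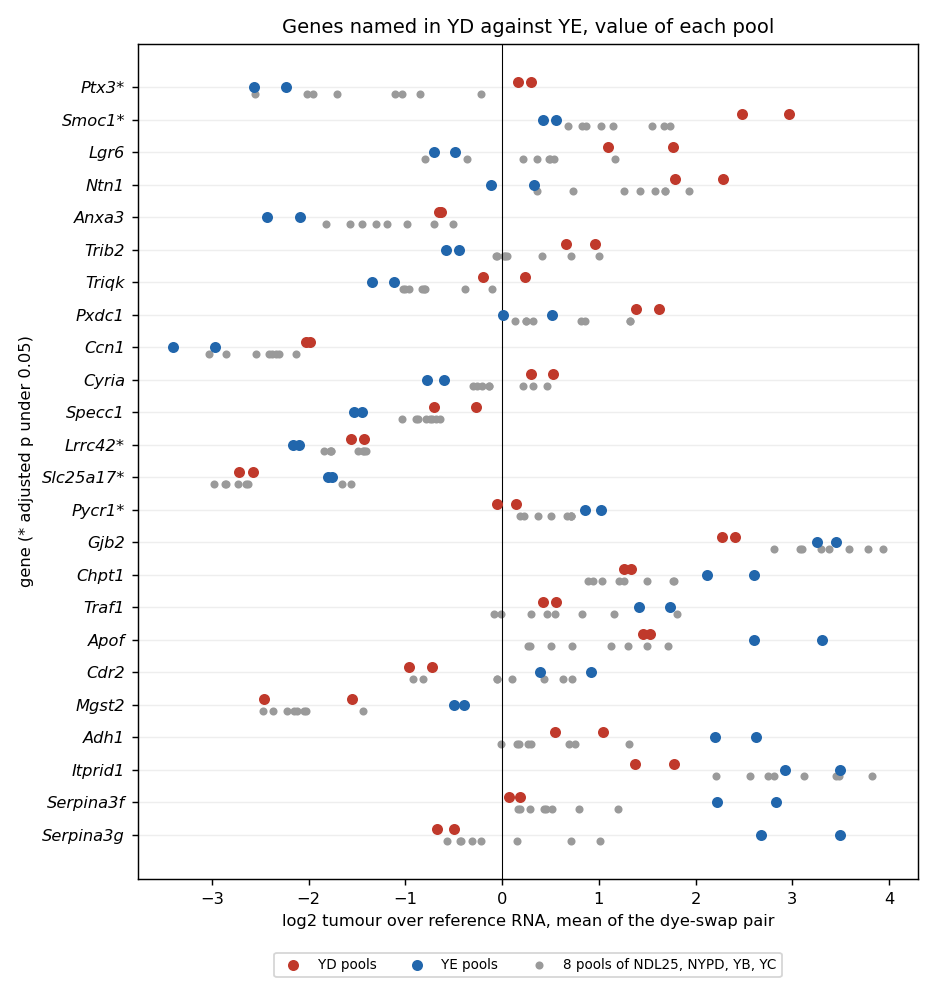
The log2 ratio of tumour over reference RNA is shown for the 24 genes in each pool, with YD pools in red, YE pools in blue and the 8 pools of the other strains as smaller grey points. Asterisks mark the 5 genes with an adjusted p under 0.05, and Serpina3g and Serpina3f show blue points to the right of all others.

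The 24 genes were chosen by this contrast, and their place among the other strains is therefore a description. The arrays of the other 8 pools were read on other days than those of YD and YE, except for 1 array of YC pool 2. Strain and day cannot be told apart in this placement. In 15 of the 24, both YE pools lay outside the range of the 8 pools of the other strains. In 7 genes this was so for the YD pools, and Smoc1 and Pycr1 were in both counts. Among the 12 genes lower in YD, the YE pools were above all 8 pools in 7, namely Pycr1, Serpina3f, Serpina3g, Adh1, Apof, Mgst2 and Chpt1. Among the 12 genes higher in YD, the YE pools were below all 8 pools in 8 and the YD pools above all 8 in 4, namely Ptx3, Smoc1, Ccn1 and Pxdc1. Over all genes tested the YE pools were above the other strains in 3.55% and below them in 3.43%, and the YD pools in 1.97% and 1.40%. Against NYPD, whose arrays were read on another day, 1 of the 24 genes had an adjusted p under 0.05 in YD and 13 in YE. Over all genes these contrasts called 0.0317% for YD and 1.87% for YE. They share the YD or YE pools with the main comparison.

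Transcripts of the receptor and of the adaptors it docks were next examined. Erbb2 had 3.55 and 3.97 in the YD pools, against 3.42 and 3.92 in the YE pools on its brightest probe, a difference of 0.09 ± 0.85. The other probes gave differences of 0.16 and 0.05 at lower levels. The first of these had 0.54 and 0.91 in YD, against 0.45 and 0.68 in YE. The second had 0.19 and 0.18 in YD, against 0.08 and 0.21 in YE. Which of the probes read the transgene was not tested. The YD and YE values interleaved. On the brightest probe the NDL25 pools held 1.64 and 3.92 and the YB pools 1.85 and 4.19, and this spread enters the error. Shc1, which encodes the Shc adaptor, had -0.46 and -0.23 in YD, against -0.78 and -0.61 in YE, a difference of 0.35 ± 0.18 with an adjusted p of 0.673. Dok2 had -0.80 in both YD pools, against -0.87 and -0.88 in the YE pools, a difference of 0.08 ± 0.17. Grb2 differed by 0.10 ± 0.23. Crk differed by 0.51 ± 0.41, with 0.07 and -0.26 on its other probes. None of these adaptor genes passed the test. Of 25 adaptor and docking genes tested, 1 had an unadjusted p under 0.05 with a positive difference and 2 with a negative one, against 4.68% and 4.04% of all genes. Sos2, an exchange factor for Ras, was the lowest in p at -0.26 ± 0.06.

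Among the ErbB ligands, Areg, the ligand amphiregulin of EGFR, had -0.22 and -0.83 in the YD pools, against -1.83 and -2.01 in the YE pools (difference 1.40 ± 0.49, adjusted p = 0.439). Egf ran the other way, with 1.51 and 1.25 in the YD pools, against 2.31 and 2.32 in the YE pools (difference -0.93 ± 0.29, adjusted p = 0.362). Egfr, the receptor of both, had 0.53 and 1.23 in YD, against -0.06 and 0.16 in YE (difference 0.83 ± 0.28). The 5 Egfr probes ranged from -0.04 to 1.15. None of these passed the adjusted threshold. The median over the 10 ErbB ligands tested was -0.03.

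Genes downstream of Ras signalling were mixed. Of 15 immediate early factors, 12 had positive differences with a median of 0.21, and at an unadjusted p under 0.05 there were 4 positive differences, against 4.68% of all genes, and 2 negative ones, against 4.04%. Egr3, an early growth response factor, had -0.47 and 0.00 in YD, against -1.77 and -2.03 in YE (difference 1.67 ± 0.37), and a dimmer probe gave -0.05. Fos, a subunit of AP-1, differed by 1.19 ± 0.28. Nr4a1, an orphan nuclear receptor of the same early class, had 0.54 and 0.07 in YD, against 1.07 and 1.23 in YE, a difference of -0.84 ± 0.17. The 20 genes of ERK feedback and output had a median of -0.01, with 10 positive and 10 negative differences. Ccnd1, cyclin D, a driver of cell cycle entry, had 1.10 and 0.90 in YD, against 1.55 and 1.63 in YE, a difference of -0.59 ± 0.23. No member of either list passed the adjusted threshold.

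All 21 fibroblast and matrix markers tested had positive differences, with a median of 0.56 against -0.01 over all genes, and the pools did not overlap in 18, against 19.7% of all genes. At an unadjusted p under 0.05 there were 4, against 4.68% of all genes, and after adjustment over all genes 0. The median of the list was -1.0 and -1.18 in the YD pools, against -1.52 and -2.10 in the YE pools. Dcn, decorin, had -0.29 and -1.18 in YD, against -1.52 and -2.38 in YE, a difference of 1.22 ± 0.40, but its dimmer probe gave -0.002. Fbn1, fibrillin, differed by 1.09 ± 0.35 with 1.02 on its other probe. Col6a3, a chain of collagen of the pericellular matrix, differed by 0.73 ± 0.28, whereas its dimmer probes gave 0.01 and 0.02. In the other strains the list median ran from -1.58 in an NDL25 pool to -0.07 in a YB pool, so that YE pool 2 was the lowest of all 12 pools while YE pool 1 lay inside that range.

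Of 18 macrophage markers tested, 17 had positive differences with a median of 0.41, whereas 13601 of all 28351 genes had one. In 14 both YD pools were above both YE pools, against 19.7% of all genes. Cd14, a coreceptor for lipopolysaccharide, had 0.65 and 1.23 in the YD pools, against -0.22 and -0.66 in the YE pools, a difference of 1.38 ± 0.27. Lyz2, lysozyme, had 2.09 and 1.69 in YD, against 1.44 and 1.12 in YE. Mpeg1, a perforin-like protein of phagocytes, differed by 0.55 ± 0.16, but its dimmer probe gave 0.05. Cytokine genes had a median of 0.19, with 25 of 30 positive and 7 at an unadjusted p under 0.05, all 7 positive, against 4.68% of all genes. Cxcl1, a neutrophil chemoattractant, had -1.70 and -1.84 in YD, against -2.66 and -2.77 in YE. Cx3cl1, fractalkine, had 0.38 and 1.16 in YD, against -0.29 and -0.28 in YE, but its second probe gave 0.04. Il1b, interleukin 1 beta, had 1.02 and 1.47 in YD, against 0.40 and -0.09 in YE. The T cell list had a median of 0.01, with 10 of 18 differences positive, and in the neutrophil list 5 of 11 were positive. At an unadjusted p under 0.05 the neutrophil list held 2 positive differences, against 4.68% of all genes, and 0 negative ones, against 4.04%. Il1b, which is in this list too, was among the 2. No member of these lists passed the adjusted threshold.

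Of 14 basal and myoepithelial markers, 12 had positive differences with a median of 0.35. Lamb3, a laminin chain of epithelial basement membranes, had the lowest p of the list. Its log2 ratios were 0.77 and 1.52 in the YD pools, against -0.30 and -1.19 in the YE pools, a difference of 1.89 ± 0.45. Trp63, a transcription factor of basal cells, differed by 0.53 ± 0.18 on its brightest probe, and its other probe was not well above background on 3 of the 4 arrays of either strain. Krt19, a keratin of simple epithelium in the luminal list, had -1.09 and -0.54 in the YD pools, against -3.07 and -3.09 in the YE pools, a difference of 2.27 ± 0.64 with an adjusted p of 0.317. Its range over the other strains, -2.80 to 1.48, was wider than this difference.

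Adipocyte and skeletal muscle markers, which can enter a sample with surrounding fat and body wall, also had mostly positive differences. The adipocyte list had a median of 0.28 with 14 of 17 positive. At an unadjusted p under 0.05 there were 6, all positive, against 4.68% of all genes. Its list median was 1.03 and 0.72 in the YD pools, against 0.54 and 0.35 in the YE pools. Plin4 and Cidec, coat proteins of lipid droplets, differed by 0.61 ± 0.14 and 0.59 ± 0.15. The muscle list had a median of 0.45 with 15 of 17 positive, and its list median was 0.13 and 0.17 in the YD pools, against -0.35 and -0.26 in the YE pools. Myh4, a myosin of fast fibres, had 1.77 and 2.59 in YD, against 0.28 and 0.14 in YE. Endothelial markers had a median of 0.09 and their list medians overlapped between the strains. The part of admixed stroma, fat or muscle in the differences above was not tested.

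**Figure D3:**
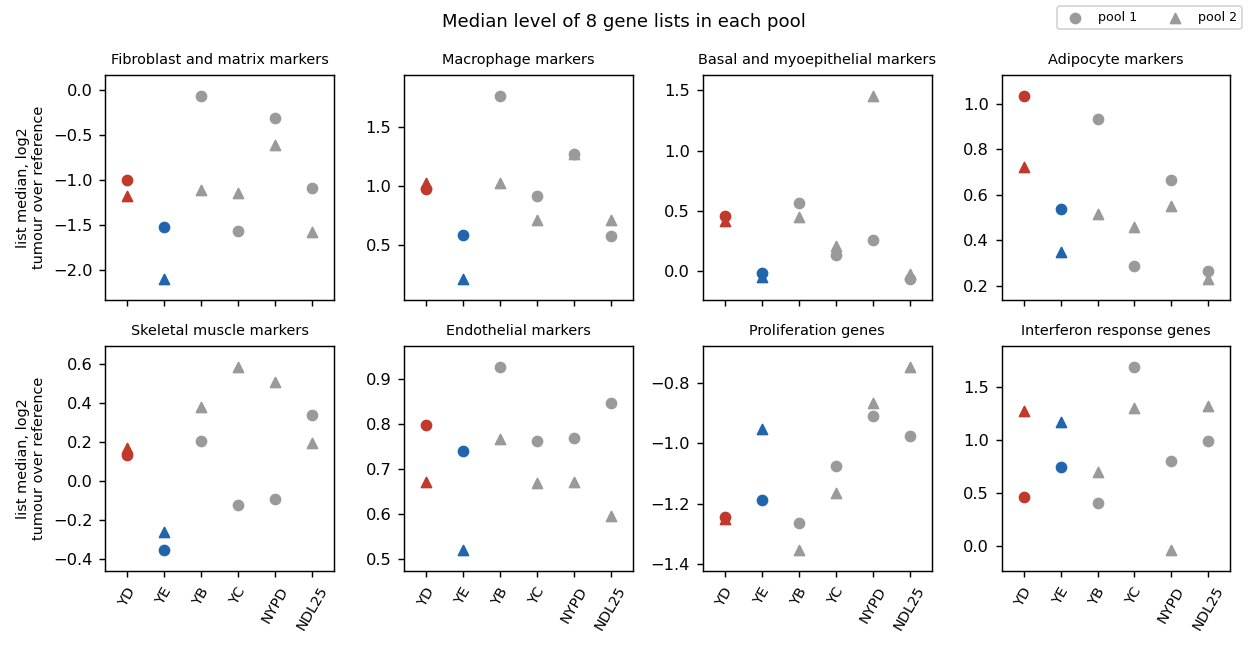
Each panel shows, for 1 gene list, the median log2 ratio of tumour over reference in every pool, with circles for pool 1 and triangles for pool 2, YD in red, YE in blue and the other strains in grey. Both YD pools are above both YE pools for fibroblast, macrophage, basal, adipocyte and muscle markers, and below them for proliferation genes, while the interferon panel overlaps.

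Of 30 proliferation genes tested, 22 had negative differences with a median of -0.15, and 5 had an unadjusted p under 0.05, all negative, against 4.04% of all genes. Rrm2, the small subunit of ribonucleotide reductase, had -1.33 and -1.72 in the YD pools, against -0.44 and -0.10 in the YE pools, a difference of -1.26 ± 0.33. E2f1, a factor of S phase entry, had -1.19 and -1.32 in YD, against -0.88 and -0.78 in YE, and Mcm2, of the replicative helicase, differed by -0.41 ± 0.15. The list median was -1.24 and -1.25 in the YD pools, against -1.19 and -0.95 in the YE pools. Cholesterol synthesis genes had 16 of 22 negative differences and a median of -0.14. Dhcr7, of the final step of that pathway, had 1.44 and 1.65 in YD, against 1.99 and 2.28 in YE. Fatty acid synthesis genes had a median of 0.12, with 5 positive and 0 negative differences at an unadjusted p under 0.05, against 4.68% and 4.04% of all genes. No member of the 3 lists passed the adjusted threshold.

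Amino acid genes were examined because Pycr1 makes proline. In the list of 23 targets of ER stress and ATF4, 12 differences were positive and 11 negative. At an unadjusted p under 0.05 there were 3 negative differences, against 4.04% of all genes, and 0 positive ones, against 4.68%. The 3 were Asns, Phgdh and Derl3, whereas the median of the list was 0.00. Asns, asparagine synthetase, had -1.96 and -2.11 in the YD pools, against -1.26 and -0.82 in the YE pools, a difference of -0.99 ± 0.24. Phgdh, the entry enzyme of serine synthesis, had -1.99 and -2.61 in YD, against -1.66 and -1.78 in YE, with 3 probes between -0.58 and -0.42. Derl3, of the degradation path for misfolded proteins, differed by -1.15 ± 0.27. None of the 3 passed the adjusted threshold.

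The members of the NRF2 and glutathione list were split. Nqo1, a quinone reductase and classic NRF2 target, had -0.44 and 0.35 in the YD pools, against -1.89 and -2.12 in the YE pools, a difference of 1.96 ± 0.44. Gsta3, a glutathione transferase, had 1.24 and 0.20 in YD, against 1.80 and 2.18 in YE, with -1.27 and -1.43 on its probes. The list held 2 positive and 4 negative members at an unadjusted p under 0.05, against 4.68% and 4.04% of all genes, and its median was 0.13. Milk genes were also split, with Muc15, a membrane mucin, at 0.85 ± 0.30 and Xdh, xanthine dehydrogenase, at -0.86 ± 0.32. Slc2a1, the glucose transporter of the hypoxia list, had -1.30 and -0.77 in YD, against -1.91 and -2.29 in YE, a difference of 1.06 ± 0.20. Wnt5b, a secreted Wnt ligand, differed by 1.15 ± 0.20 with 0.81 on its other probe. None of these passed the adjusted threshold.

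**Figure D4:**
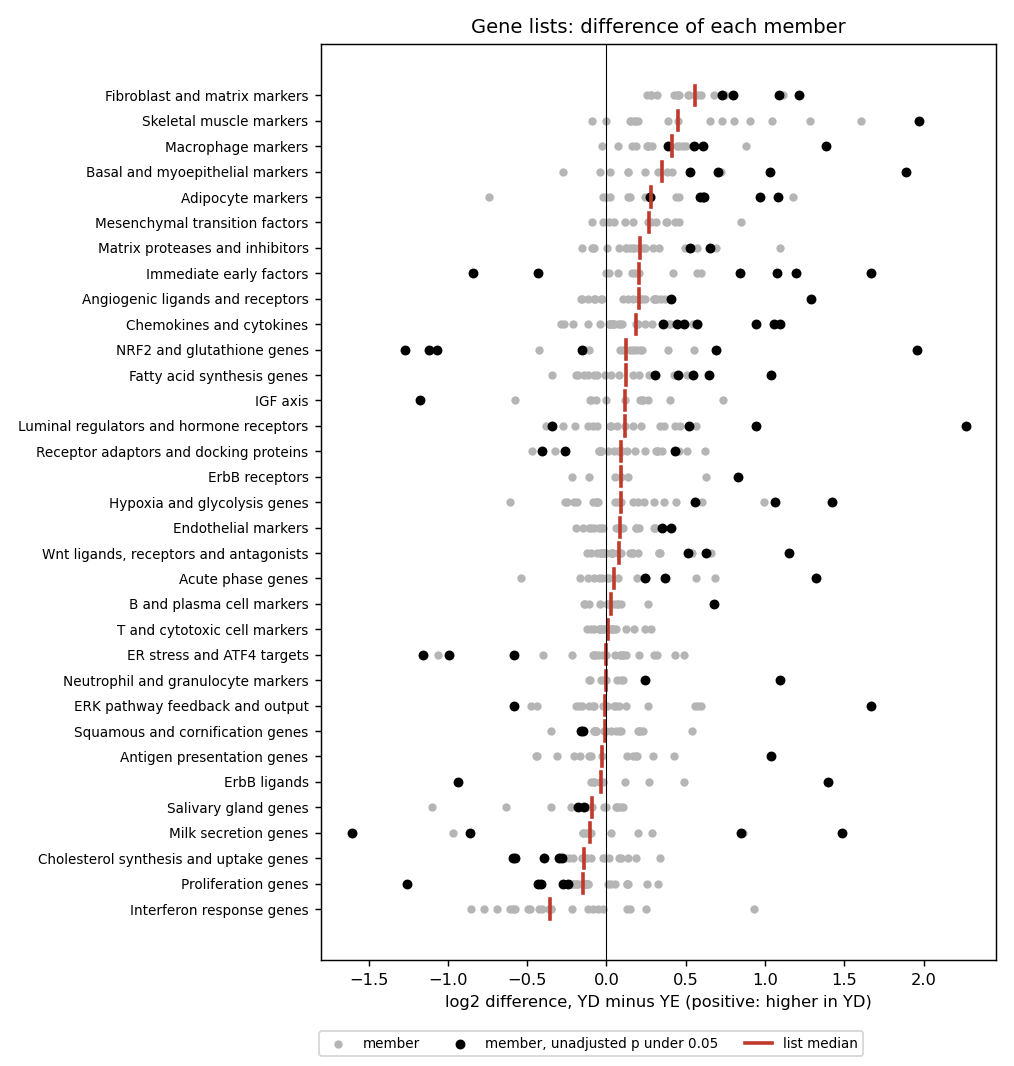
Each point is a gene of the list named at the left, placed by its log2 difference YD minus YE, with genes at an unadjusted p under 0.05 in black and the list median as a red bar. The medians run from 0.56 for fibroblast and matrix markers to -0.35 for interferon response genes, and 23 of the 33 lists have a positive median.

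The interferon list had the lowest median, -0.35, with 18 of 22 negative differences, but 0 members reached an unadjusted p under 0.05 and the pools were apart in 6, against 22.3% of all genes. Bst2, the membrane tether of viruses, differed by -0.59 ± 0.27. The list median was 0.46 and 1.27 in the YD pools, against 0.74 and 1.17 in the YE pools, so the pools of 1 strain differed more than the strains. Over the 33 lists, 23 medians were positive, and 0 members were called after adjustment over all genes by limma.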

How the data were processed

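RNA of 12 tumour pools, 2 for each of 6 strains, was measured beside a common reference on 24 Agilent arrays, after 1 round of amplification from 500 ng, per the labels. The deposited scanner files hold the mean spot intensity and the median background intensity of each channel, per the file headers, and processed intensity and a log10 ratio that served only for a check. The authors also deposited 1 log2 ratio per pool and probe, and the tools listed in the submitters' processing notes are R 2.3.0, limma and RMA. These ratios correlated at r = 0.983 or above with those computed here, with slopes from 1.02 to 1.37, so their direction is settled. Their medians lay between -0.0025 and 0.0143, while the log2 base is an assumption and no source used here states the centring. The labels do not say which dye held the tumour, so it was read from 24 probes of milk genes. On each of the 24 arrays Csn2 and Lalba marked 1 channel as tumour, and Afp marked the opposite channel as reference. The 2 arrays of each YD and YE pool correlated at r = -0.941 or below before one was turned.

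Background correction used normexp (offset 50), and loess normalisation was applied to each array in limma 3.58.1. R was version 4.3.3 and data.table version 1.17.8. Of 41174 probes, 698 marked as outliers or non-uniform, 312 well above background on fewer than 4 arrays and 11813 with a brighter probe of the same gene were left out. The 28351 genes tested include 17697 with ordinary symbols. RefSeq named 20716 probes through their accession, 5039 through the symbol and 5279 through a synonym, and 10140 kept the file's own name. The files name no genome build.

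All 12 pools entered a single limma fit with strain means, in which 6 residual degrees of freedom were joined by 1.76 of the prior, and p-values were adjusted by Benjamini-Hochberg over all genes. The median SE was 0.109. Genes named are those with an adjusted p under 0.05, pools that do not overlap and an ordinary symbol. The genes that filled each direction to 12 also had pools that do not overlap and an ordinary symbol. They were taken by smallest p among those with an unadjusted p under 0.01 and a log2 difference of at least 1. Erbb2, Shc1, Grb2, Crk, Dok2 and, per list, the 3 tested members of smallest p were added, except for 2 members that are not reported here, and Ccnd1, Il1b and the further Serpina3 genes are given beside them. The brightest probe, by the mean log intensity of both channels, stands for a gene, and disagreement is stated. The comparison, the 33 gene lists and their members were chosen with earlier results of these data known. On simulated data with this layout and 28351 genes, 100 genes were given a log2 shift of 1 and 100 a shift of 2. The fit found 83 and 95 of them and made 15 false calls. The simulation changed far more genes than were called here, which makes the Benjamini-Hochberg threshold easier to pass. These shares therefore do not carry over to the comparison, in which Lgr6 at 2.03 and Serpina3g at -3.67 were not called. Alternatives covered background correction, normalisation, dim probes, samples, blocks, dyes and each pool left out.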

Additional observations from a re-analysis of the deposited data

How the results depend on the processing

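The count of 5 genes called between YD and YE depended on the processing. It was 0 with Agilent's processed signals, with median centring in place of loess, with only the 4 YD and YE pools, with the extraction day as a block, with the authors' deposited log2 ratios, with the tumour in Cy3 only, and with a trended and robust prior. At an unadjusted p under 0.05 these fits still held 2331 to 3116 genes. The day block cannot adjust the comparison of YD and YE, because all their arrays share 1 extraction day. It left every YD minus YE difference unchanged and altered only the estimate of the spread. The count was 6 with quantile scaling between pools and 6 with the tumour in Cy5 only, of which 3 and 4 were among the 5, and it was 5 under both other filters on dim probes and 7 when every probe was tested. A log2 difference of at least 1 was met by 2 of the 5, Ptx3 and Smoc1. Leaving out 1 pool gave counts from 0 to 3. It was 2 without YD pool 1, 0 without YD pool 2, 3 without YE pool 1, 1 without YE pool 2 and 0 without any 1 pool of another strain, with 1177 to 3019 genes at an unadjusted p under 0.05. None of the 5 was among these calls. The lone pool of a strain is then assumed to vary like the others.

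The replicate block gave 0 calls, with 2789 genes at an unadjusted p under 0.05. Deviations of same-numbered pools correlated at 0.617 between YD and YE, 0.712 between YC and YD and 0.465 between YC and YE, and over all pairs of strains from -0.172 to 0.712. The labels do not say that a number marks anything shared, each strain has only 2 numbers, and not every correlation was above 0, so the numbers were not taken to pair the samples. The fit within 1 extraction day is that of the 4 pools, since 1 array of YC pool 2 was read on the same day and the other was not.

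All 24 genes kept their sign in every alternative that gave them a value, for example Ptx3 from 2.47 to 3.01 and Serpina3g from -4.26 to -3.26, and the lowest adjusted p of Serpina3g was 0.0921. The number of lists with a positive median was 19 to 28 of 33. The fibroblast median stayed between 0.35 and 0.72 and the macrophage median between 0.27 and 0.61, while the interferon median ran from -0.70 to 0.07. The cause of these changes was not tested. The number of pools, 2 in each strain, limits the precision of each difference.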
